A study of Flaveria bidentis and Flaveria robusta with 100 samples.

Results

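Mature leaves of 2 Flaveria species were compared at zeitgeber time 12 (ZT12, hours after lights on), which in a day of 10 h light and 14 h dark falls 2 h after lights off. Flaveria bidentis uses C4 photosynthesis and Flaveria robusta uses C3 photosynthesis. Each type is represented by a single species, so it cannot be told apart from other differences between the species. The comparison rests on 8 of the 100 libraries of the series, namely those of each species at ZT12 of the first and the second light-dark day, with 2 libraries per species and day. Plants of both species had spent 36 days in a greenhouse and 6 days in a chamber with light at 22 °C and dark at 20 °C, and carried no transgene or agent according to the labels. The deposited values are the authors' means over the libraries of a species and time point, in RPM, reads scaled to a fixed library total, so the 8 libraries appear as 4 of the 50 means. The labels call the replicates biological but do not say how many plants each held. The other light-dark hours (20 means) and ZT12 in the constant light that followed (4 means, called lit ZT12 here) serve as the background against which the early dark is set.

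In C3 leaves Rubisco fixes carbon dioxide directly, and its side reaction with oxygen feeds photorespiration, which recovers carbon through chloroplasts, peroxisomes and mitochondria. In C4 leaves of the NADP-malic enzyme type, PEP carboxylase of the mesophyll fixes bicarbonate into a C4 acid, which is decarboxylated next to Rubisco in the bundle sheath. Pyruvate orthophosphate dikinase (PPDK) then rebuilds the acceptor. PEP carboxylase kinase phosphorylates PEP carboxylase and makes it less sensitive to malate, and in C4 leaves this kinase is known to be active in the light. At dusk leaves stop fixing carbon and begin to live on starch, and genes of sugar starvation are induced when sugar runs short.

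The features of the table are Arabidopsis gene identifiers, called entries here. How Flaveria reads were matched to them is not given in the sources used here, so entries of one family (PPC1 with PPC2, the NADP-malic enzymes, PPCK1 with PPCK2, the Rubisco small subunits) may share reads. Reads of the 2 species may also match an entry unequally. Differences, above all those with very low values in either species, may thus hold a part from matching, which was not tested. Differences are given on the log2(mean RPM + 1) scale as F. bidentis minus F. robusta with the standard error (SE) of the fit. Such a scale understates the change of low entries. RPM values are not per length, so levels are compared between species and not between entries. The p-values are from limma, two-sided, and adjusted by the Benjamini-Hochberg method over all 13563 entries tested, with a threshold of 0.05. They measure the spread of day means around the fit, not the spread between plants. With 2 day means per species, an exact permutation test of a single entry could not go below p = 0.333.

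Green-leaf entries were abundant in all 4 means. RBCS1A, a Rubisco small subunit, had 9759 and 9630.5 RPM in F. bidentis on days 1 and 2 and 38212 and 18784.5 RPM in F. robusta. The summed level of the 7 dividing-cell markers in the table was 56 and 70.5 RPM in F. bidentis and 77.5 and 58 RPM in F. robusta. The mean of F. robusta on day 2 stood apart from that of day 1. With 2 days it cannot be told which of them is the unusual one. In F. robusta 448 entries differed by more than 2-fold between the days, against 86 in F. bidentis, and the SD of the day difference over entries was 0.44 against 0.29. The 10 highest entries held 14.1% and 8.26% of the RPM in F. robusta on days 1 and 2, against 10.9% and 9.43% in F. bidentis. The summed light-harvesting entries had 54849 RPM on day 1 and 24243.5 RPM on day 2 of F. robusta, with 31185 and 24720.5 RPM in F. bidentis. The larger changes of counts without the F. robusta day 2 mean are given beside them.

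At ZT12, 5104 entries differed between the species, which is 37.6% of those tested. Of these, 2405 were higher in F. bidentis (17.7%) and 2699 were lower (19.9%). The shares of 17.7% and 19.9% are the background for the list counts at ZT12 below. The median difference over all entries was -0.04. The sign was the same on both days for 5102 of the 5104. Calls were made on the mean over the days, which favours entries whose sign is the same, so this agreement adds little support. Over all 13563 entries tested, called or not, the sign was the same on both days for 10297. A ratio of at least 2 was reached by 2383 entries, with 1112 higher (8.2%) and 1271 lower (9.37%). Without the F. robusta day 2 mean 3928 entries were called (29%), with 2263 higher (16.7%) and 1665 lower (12.3%), and 3562 of them were shared with the full comparison. The balance of directions thus turned with that 1 mean. The median difference over all entries was 0.06 without it and -0.15 without the F. robusta day 1 mean. It was -0.01 and -0.07 without the F. bidentis day 1 and day 2 means. Leaving out either F. robusta mean thus moved the balance, in opposite directions.

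**Figure D1:**
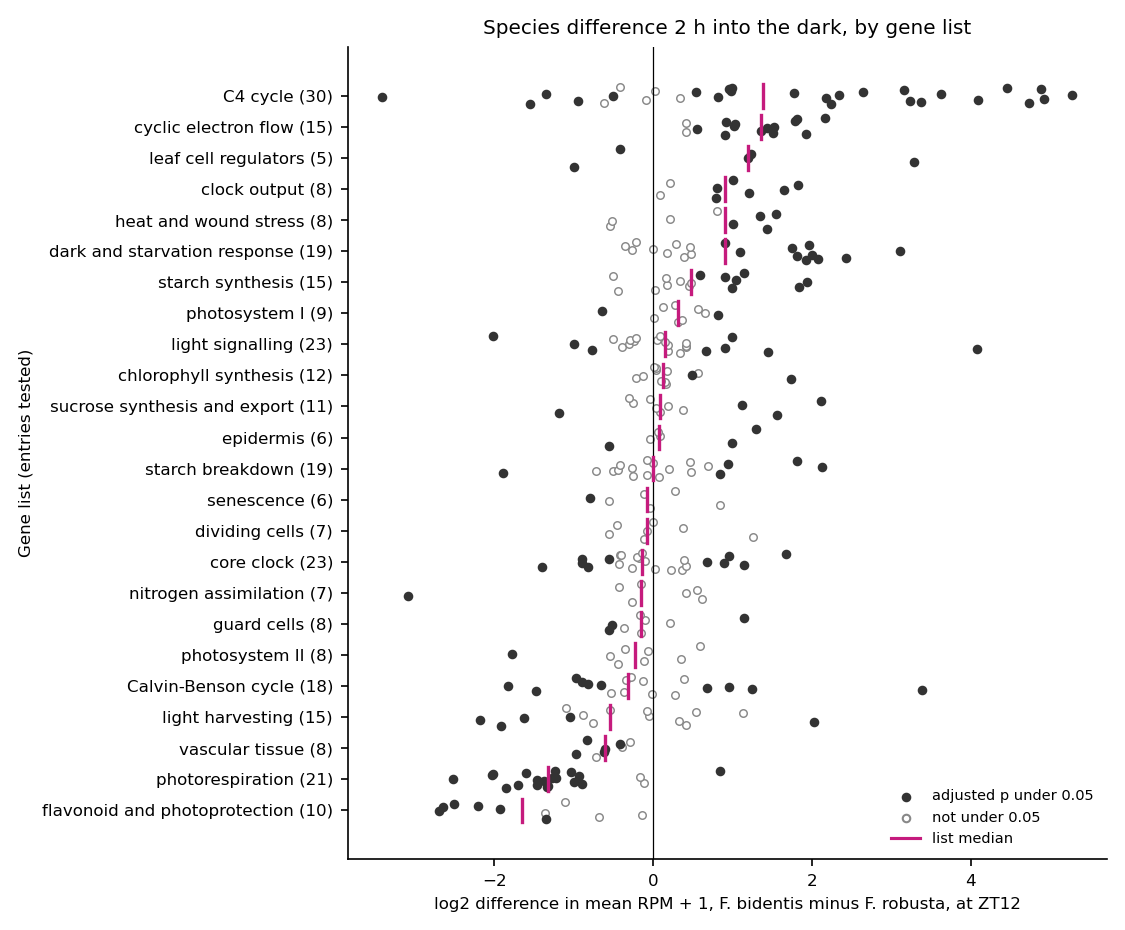
Log2 difference in mean RPM + 1 between F. bidentis and F. robusta at ZT12 (x axis) for every tested entry of the 24 gene lists (y axis, with the number tested). Filled points had an adjusted p under 0.05, open points did not, and bars mark list medians. The C4 cycle has the widest range (-3.41 to 5.28). Photorespiration (median -1.32) and the flavonoid and photoprotection entries (median -1.65) lie mostly to the left.

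C4 cycle entries stood far apart between the species 2 h into the dark. Of 30 tested, 20 were higher in F. bidentis and 5 were lower, with a median of 1.39. Without the F. robusta day 2 mean the counts were 18 and 4. Together the 30 entries took 98445 and 87457.5 RPM in F. bidentis on days 1 and 2, and 16463.5 and 11040 RPM in F. robusta. The entry of PPDK had 27497 and 27811 RPM in F. bidentis and 494.5 and 1017.5 RPM in F. robusta. Both F. bidentis days lay far above both F. robusta days, and the difference was 5.28 (SE 0.34, adjusted p = 2.14e-09), a ratio of 36.5 between the means + 1 RPM, as for the other ratios given. The PEP carboxylase entry PPC1 had 17753 and 11546 RPM against 564 and 514.5 RPM, a difference of 4.73 (SE 0.19, adjusted p = 2.54e-12). Its partner PPC2 had 7813 and 5101 RPM against 211 and 205.5 RPM, a difference of 4.92 (SE 0.21).

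Enzymes that turn the C4 acids over showed the same order of species. NADP-MDH, the chloroplast malate dehydrogenase that makes malate, had 5224 and 4810.5 RPM in F. bidentis and 208 and 248 RPM in F. robusta, a difference of 4.46 (SE 0.17, adjusted p = 8.29e-13). NADP-ME4, the chloroplast malic enzyme that releases carbon dioxide, had 7353 and 7220.5 RPM against 688 and 716 RPM, a ratio of 10.4. The groups did not overlap for either. NADP-ME1 and NADP-ME2 differed by 3.23 and 2.64. AMK2, a plastid adenylate kinase that removes the AMP made by PPDK, had 2037 and 1910 RPM against 61.5 and 71 RPM, a difference of 4.88 (SE 0.19). The aspartate aminotransferase entry ASP5 differed by 3.63 and the alanine aminotransferase entry AlaAT1 by 2.24. PPA6, a plastid pyrophosphatase, differed by 1.78.

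Transporters of the chloroplast envelope and the regulators of PPDK were also higher in F. bidentis. BASS2, which imports pyruvate with sodium, had 2940 and 2678 RPM in F. bidentis and 144.5 and 187 RPM in F. robusta, a difference of 4.09 (SE 0.23, adjusted p = 1.49e-10). PPT1, a phosphoenolpyruvate transporter, had 850 and 821.5 RPM against 85 and 101 RPM. RP1 and RP2 encode bifunctional proteins that switch PPDK off in the dark and on in the light. They had 351.5 and 324 RPM against 62 and 69.5 RPM (RP1), and 203.5 and 214.5 RPM against 40.5 and 50.5 RPM (RP2), with differences of 2.34 and 2.18. The triose phosphate transporter entry TPT differed by 0.95, and the dicarboxylate transporter entry DIT2.2 had 178 and 156 RPM against 104.5 and 65.5 RPM (adjusted p = 0.00106). DIT1, at 0.98, lost its call without the F. robusta day 2 mean, where its difference was 0.63 (adjusted p = 0.117).

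Entries of other decarboxylation routes went the other way. NAD-ME1, a subunit of the mitochondrial NAD-malic enzyme, had 140 and 149.5 RPM in F. bidentis and 262.5 and 295 RPM in F. robusta, a difference of -0.94 (SE 0.14, adjusted p = 3.52e-05). PCK1, a PEP carboxykinase, had 53.5 and 63 RPM against 166.5 and 134 RPM, a difference of -1.35. CA1, a carbonic anhydrase, did not pass: it had 6645.5 and 5347 RPM in F. bidentis and 7839 and 2831.5 RPM in F. robusta, so the species overlapped, and its difference of 0.34 became -0.40 without the F. robusta day 2 mean. ASP1, ASP2, PCK2 and PPC4 did not pass either, with differences of -0.09, 0.03, -0.41 and -0.62. The calls of NAD-ME2 (-0.51) and ASP3 (0.54) were lost without the F. robusta day 2 mean (-0.19, adjusted p = 0.478, and 0.36, adjusted p = 0.261), without either F. bidentis mean and with the ZT12 means fitted alone.

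**Figure D2:**
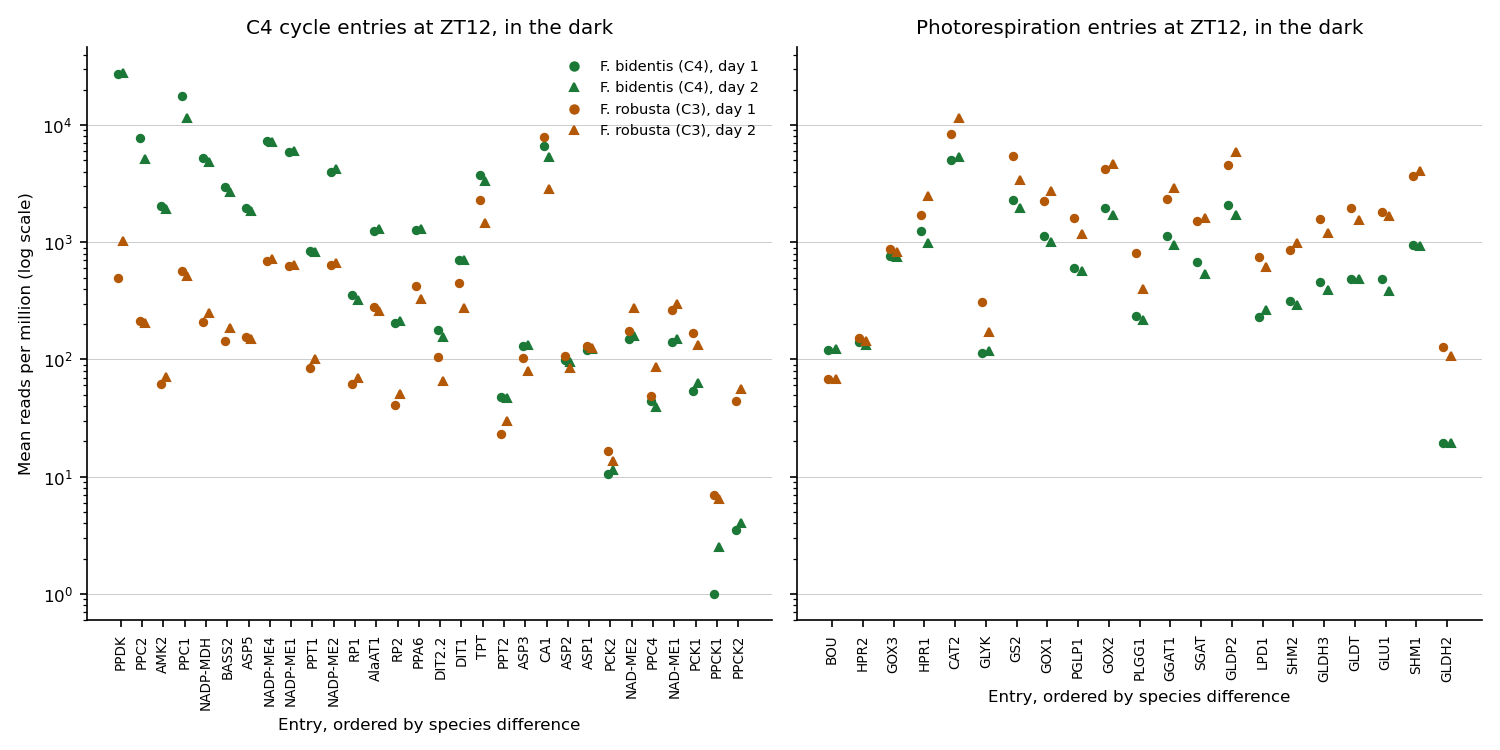
Mean RPM (log scale) of the 30 C4 cycle entries (left) and the 21 photorespiration entries (right) in the 4 ZT12 means, ordered by the species difference. Circles are day 1 and triangles day 2. PPDK reaches 27811 RPM in F. bidentis, whereas PPCK2 at the far right of the left panel is at 3.5 and 4.0 RPM in F. bidentis and 44 and 55.5 RPM in F. robusta.

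The 2 entries of PEP carboxylase kinase stood at the opposite end of the C4 list. PPCK2 had 3.5 and 4.0 RPM in F. bidentis on days 1 and 2 and 44 and 55.5 RPM in F. robusta. The species did not overlap, and the difference was -3.41 (SE 0.28, adjusted p = 3.64e-08), a ratio of 10.7 between the means + 1 RPM in favour of F. robusta. PPCK1 had 1.0 and 2.5 RPM in F. bidentis and 7.0 and 6.5 RPM in F. robusta, a difference of -1.55 (SE 0.36, adjusted p = 0.00238). Its adjusted p was 0.0518 without the F. bidentis day 1 mean (-1.15).

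In the light, at ZT20 and at ZT00 both kinase entries were ordered the other way, with higher means in F. bidentis. At ZT16, also in the dark, PPCK2 was still lower in F. bidentis, with 17 and 12.5 RPM against 38 and 28 RPM (-1.11), and PPCK1 had 6 RPM on both days against 6 and 4 RPM (0.24). In the light at ZT04 and ZT08, PPCK2 had 113.5 and 86.5 RPM on day 1 and 57 and 105 RPM on day 2 in F. bidentis. In F. robusta it had 18 and 31 RPM on day 1 and 15 and 33 RPM on day 2. The ZT12 values of F. bidentis were below its lowest other light-dark value of 11.5 RPM, and those of F. robusta were above its highest other value of 38 RPM. The species difference of PPCK2 at ZT12 was shifted by -4.60 from the mean difference of 1.19 over the other 5 light-dark hours (adjusted p = 7.37e-08). For PPCK1 it was lower by 3.54 than the mean difference of 1.99 (adjusted p = 4.06e-05), and against ZT16 alone by 1.79, which did not pass (adjusted p = 0.124).

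The kinase entries also differed between dark and lit ZT12. At lit ZT12 PPCK2 had 62 and 80 RPM in F. bidentis and 40.5 and 37.5 RPM in F. robusta. The F. bidentis values were thus far above those in the dark, whereas the F. robusta values were slightly below. The species difference in the dark was lower by 4.25 than in the light (adjusted p = 4.3e-06). PPCK1 had 37.5 and 48 RPM in lit F. bidentis and 8.5 and 13 RPM in lit F. robusta, and its species difference was lower by 3.46 in the dark (adjusted p = 0.00173). Constant light followed the light-dark days, so light cannot be told apart from the day of sampling in any such contrast. The dark was also cooler than the light in the light-dark days, and the labels give no separate temperature for constant light. Temperature may thus differ along with light, here and against the lit light-dark hours, and its part was not tested.

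**Figure D3:**
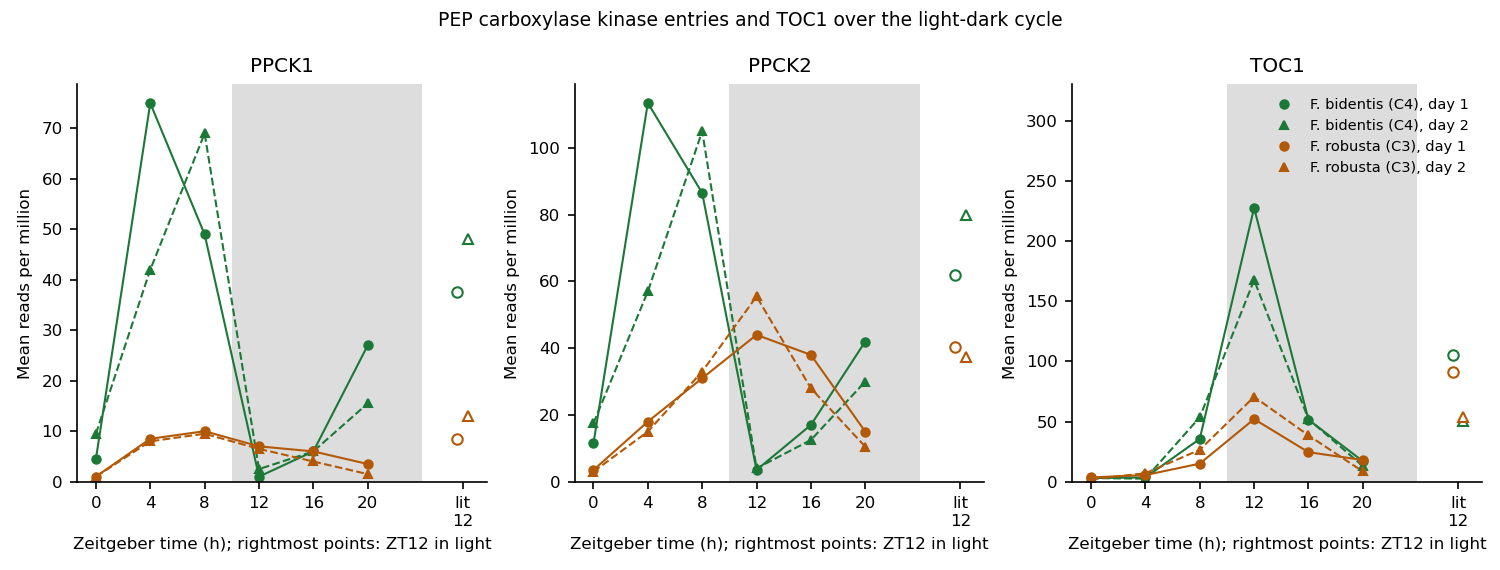
Mean RPM of PPCK1, PPCK2 and TOC1 against zeitgeber time in the light-dark days (lines; grey marks the dark) and at lit ZT12 (open symbols at the right; circles first and triangles second day of each regime). PPCK2 in F. bidentis drops to 3.5 and 4.0 RPM at ZT12 and stands at 62 and 80 RPM at lit ZT12, and TOC1 in F. bidentis reaches 227.5 and 167.5 RPM at ZT12.

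Photorespiration entries were lower in F. bidentis. Of 21 tested, 18 were lower and 1 was higher, with a median of -1.32, and without the F. robusta day 2 mean the counts were 16 and 1. Their summed level was 20473 and 18931.5 RPM in F. bidentis and 45151.5 and 48317.5 RPM in F. robusta. GLDH2, an H subunit of the mitochondrial glycine decarboxylase, had 19.5 RPM on both days in F. bidentis and 127 and 107.5 RPM in F. robusta, a difference of -2.52 (SE 0.19, adjusted p = 5.97e-09). SHM1, the serine hydroxymethyltransferase that works with glycine decarboxylase, had 954.5 and 933.5 RPM against 3659.5 and 4085 RPM, a difference of -2.03 (SE 0.15, adjusted p = 7.27e-09). GLDT, the T subunit of glycine decarboxylase, and SHM2 differed by -1.85 and -1.60. BOU, a mitochondrial carrier needed for photorespiration in Arabidopsis, was the exception, with 121.5 and 123 RPM in F. bidentis and 67.5 and 68.5 RPM in F. robusta (0.84, SE 0.19, adjusted p = 0.00196).

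The Calvin-Benson cycle was mixed (median -0.31). Of 18 entries 4 were higher in F. bidentis (22.2% against a background of 17.7%) and 6 lower (33.3% against 19.9%). Without the F. robusta day 2 mean 3 were higher and 9 lower. RCA, the activase that keeps Rubisco active, had 3533 and 2999.5 RPM in F. bidentis and 14340 and 9358 RPM in F. robusta, a difference of -1.83 (SE 0.19, adjusted p = 8.26e-07). RBCS1A differed by -1.47 (SE 0.26), with day differences of -1.97 and -0.96. CP12-3, of the small proteins that hold Calvin-Benson enzymes inactive in the dark, had 191 and 206 RPM in F. bidentis and 17 and 19.5 RPM in F. robusta, a difference of 3.38 (SE 0.17, adjusted p = 2.77e-11). FBA3, a plastid aldolase, differed by 1.24.

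Among the 15 light-harvesting entries 4 were lower and 1 was higher (median -0.54), and without the F. robusta day 2 mean 5 were lower. In the full comparison that is 26.7% lower against a background of 19.9%, and 6.67% higher against 17.7%. LHCB7 had 36 and 28.5 RPM in F. bidentis and 116.5 and 191 RPM in F. robusta (-2.18, SE 0.22, adjusted p = 3.14e-07). LHCA5, an antenna protein that joins photosystem I to the NDH complex in Arabidopsis, had 816.5 and 746.5 RPM against 253 and 143 RPM (2.03, SE 0.23). LHCB6, at -1.91, lost its call without the F. robusta day 1 mean (-1.19, adjusted p = 0.0741). Of the photosystem I subunits, PSAF (0.82) and PSAG (-0.64) passed, and both calls were lost after scaling by the trimmed mean of M values (TMM; adjusted p = 0.0565 and 0.0971). Both also lost their calls on leaving out single means, PSAF without the F. robusta day 2 mean (0.38, adjusted p = 0.328) or the F. bidentis day 1 mean (0.69, adjusted p = 0.14), and PSAG without the F. robusta day 1 mean (-0.33, adjusted p = 0.28) or the F. bidentis day 2 mean (-0.49, adjusted p = 0.182). Of 8 photosystem II entries PSBX passed, with 150 and 124.5 RPM in F. bidentis against 604 and 370 RPM (-1.78, SE 0.24), and 4 were lower without the F. robusta day 2 mean.

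Cyclic electron flow around photosystem I makes ATP without NADPH and runs through the NDH complex or the PGR5 and PGRL1 proteins. Of 15 such entries 13 were higher in F. bidentis (median 1.36), with the same count without the F. robusta day 2 mean and after TMM scaling. The NDH subunit entry NDHN had 421.5 and 372 RPM in F. bidentis and 79.5 and 95.5 RPM in F. robusta, a difference of 2.17 (SE 0.15, adjusted p = 3.72e-09). PNSB1, another NDH subunit, had 1177 and 1114 RPM against 336.5 and 269 RPM (1.92, SE 0.18). NDHM and NDHU differed by 1.79 and 1.81.

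Starch synthesis entries were higher in F. bidentis for 7 of 15 (median 0.48), and for 8 without the F. robusta day 2 mean. GBSS1, the granule-bound synthase that makes amylose, had 199.5 and 199 RPM in F. bidentis and 48 and 63 RPM in F. robusta (1.84, SE 0.24, adjusted p = 8.66e-06). SS2, a soluble synthase, had 199.5 and 165.5 RPM against 49.5 and 44 RPM (1.94, SE 0.30). PGI1, the plastid phosphoglucose isomerase, differed by 1.04 and APL2, a large subunit of ADP-glucose pyrophosphorylase, by 0.99.

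Starch breakdown, which begins at this hour, had 4 of 19 entries higher (21.1% against a background of 17.7%) and 1 lower (5.26% against 19.9%), with a median of 0.00. Leaving out the F. robusta day 2 mean gave 2 higher and 2 lower. BAM3, the main plastid beta-amylase of Arabidopsis leaves at night, had 751 and 925.5 RPM in F. bidentis and 175 and 207 RPM in F. robusta (2.13, SE 0.40, adjusted p = 0.000485). BAM4, a beta-amylase-like protein that acts in starch breakdown without catalysis, had 61 and 48 RPM against 16 and 13.5 RPM (1.81, SE 0.19). LSF2, a glucan phosphatase, was lower, with 32 RPM on both days in F. bidentis and 110 and 133.5 RPM in F. robusta (-1.89, SE 0.16, adjusted p = 3.33e-08). MEX1, the maltose exporter, differed by 0.94 and lost its call without the F. bidentis day 1 mean (0.86, adjusted p = 0.0556) or the F. robusta day 2 mean (0.73, adjusted p = 0.0861).

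Sucrose synthesis and export had 3 of 11 entries higher (27.3% against a background of 17.7%) and 1 lower (9.09% against 19.9%). SPSC, a sucrose phosphate synthase, had 280 and 206 RPM in F. bidentis and 61.5 and 48 RPM in F. robusta (2.12, SE 0.31, adjusted p = 3.66e-05). SPSB of the same family differed by 1.56 and the UDP-glucose pyrophosphorylase entry UGP1 by 1.12. SUC4, a sucrose transporter, had 10 and 11.5 RPM against 22.5 and 29.5 RPM (-1.19).

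Entries that respond to darkness and sugar starvation in Arabidopsis were higher in F. bidentis for 10 of 19 (median 0.90), and also for 10 without the F. robusta day 2 mean. ASN1, an asparagine synthetase induced in the dark, had 232.5 and 225.5 RPM in F. bidentis and 23 and 28.5 RPM in F. robusta, a difference of 3.11 (SE 0.30, adjusted p = 2.89e-07). The class II trehalose phosphate synthase entry TPS10 had 116.5 and 103 RPM against 20 and 19 RPM (2.43, SE 0.18, adjusted p = 8.24e-09). TPS9 had 175 and 158.5 RPM against 40 and 37.5 RPM (2.08, SE 0.21). ETFQO, which passes electrons from the breakdown of branched amino acids to the respiratory chain, had 75 and 65.5 RPM against 16 and 17.5 RPM (2.00, SE 0.26). No F. robusta day reached an F. bidentis day for any of the 4. They were named for the smallest adjusted p of the list in this comparison, so this adds no support.

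Against lit ZT12 the species difference of this group was larger in the dark for 5 of the 19 entries, which is 26.3% against a background of 0.494% in this direction. Those were TPS10, TPS9, ETFQO and, singled out after their values were seen, DIN1 and TPS11. At lit ZT12 TPS10 had 16 and 15.5 RPM in F. bidentis and 11.5 and 8.5 RPM in F. robusta, so the dark minus lit contrast was 1.81 (adjusted p = 0.0015). TPS9 had 25 and 24.5 RPM against 24.5 and 18 RPM in the light (contrast 1.85, adjusted p = 0.00289). ETFQO had 12.5 and 15 RPM against 19 and 13.5 RPM in the light (contrast 2.22, adjusted p = 0.00484). In lit leaves the species met at 24.5 RPM for TPS9 and overlapped for ETFQO.

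DIN1, a sulfurtransferase-like entry induced in the dark, had 89 and 67.5 RPM in dark F. bidentis and 12 and 9 RPM in lit F. bidentis, with 20 and 18.5 RPM and 18.5 and 25.5 RPM in F. robusta. Its contrast was 2.95 (adjusted p = 0.0139), and the adjusted p was 0.0576 without the F. bidentis day 1 mean (2.75) and 0.0562 without the F. robusta day 2 mean (2.90). TPS11, with a contrast of 1.48 (adjusted p = 0.0385), lost its call whichever of the 4 dark means was left out (1.43 to 1.52, highest adjusted p = 0.15). On leaving out the F. robusta day 2 mean 3 of the 5 remained called, and with the second lit day alone ETFQO had an adjusted p of 0.0569. ASN1 did not pass this contrast (adjusted p = 0.333): lit F. bidentis had 89 and 108.5 RPM and lit F. robusta 20.5 and 23.5 RPM.

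Of the jasmonate entries, LOX2 passed at ZT12 and in the contrast with lit ZT12, and JAZ1 passed at ZT12. LOX2, a lipoxygenase of jasmonate synthesis, had 855.5 and 826 RPM in dark F. bidentis and 307 and 358.5 RPM in dark F. robusta (1.34, SE 0.27, adjusted p = 0.000802). At lit ZT12 it had 153 and 129.5 RPM in F. bidentis and 292 and 333 RPM in F. robusta, so its dark minus lit contrast was 2.48 (adjusted p = 0.00189), and 2.27 with the first lit day alone (adjusted p = 0.0724). JAZ1, a jasmonate repressor that is itself induced by wounding, had 29 and 31 RPM against 9 and 12 RPM (1.44, SE 0.23, adjusted p = 7.1e-05). AOS, the next enzyme after LOX2, was singled out after its values were seen and did not pass (0.80, adjusted p = 0.202). Its 162 and 194 RPM in dark F. bidentis lay above the highest other light-dark value of 34 RPM there, and F. robusta had 100 and 103.5 RPM. Of the list of 8 heat and wound entries 4 were higher, and 2 without the F. robusta day 2 mean, where HSFA2 (0.40, adjusted p = 0.277) and HSP17.6II (0.91, adjusted p = 0.138) did not pass. HSFA2 also lost its call without the F. bidentis day 2 mean (0.95, adjusted p = 0.0652). The summed level of the 11 list entries in the table, tested or not, was 2957 and 3352.5 RPM in F. bidentis and 2245.5 and 2687 RPM in F. robusta. The part of these entries in the other ZT12 differences was not tested.

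**Figure D4:**
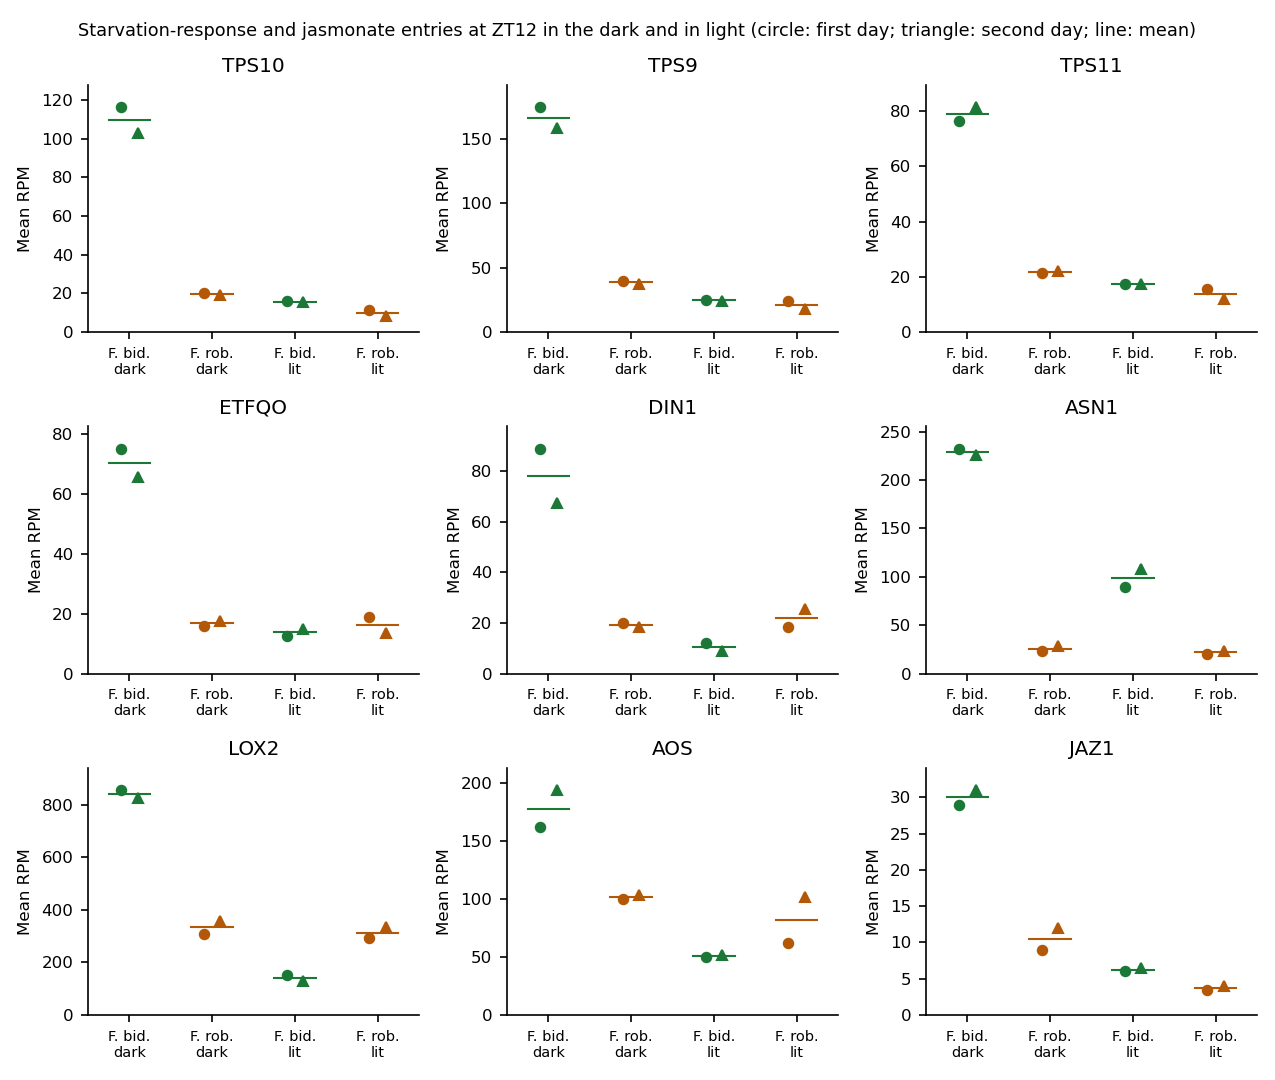
Mean RPM of 6 starvation-response entries and 3 jasmonate entries at ZT12 in the dark and in constant light, for F. bidentis (green) and F. robusta (brown); circles and triangles are the first and second day of each regime and lines their mean. For TPS10 dark F. bidentis stands at 116.5 and 103 RPM against at most 20 RPM in the other means, whereas ASN1 is also high in lit F. bidentis (89 and 108.5 RPM) and AOS also in F. robusta (100 and 103.5 RPM in the dark).

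Of the core clock entries 5 of 23 were higher and 5 lower in F. bidentis (median -0.14), and 5 and 2 without the F. robusta day 2 mean (median 0.11). In the full comparison that is 21.7% in each direction, near the background of 17.7% higher and 19.9% lower. TOC1, an evening repressor of the clock, had 227.5 and 167.5 RPM in F. bidentis and 52 and 70.5 RPM in F. robusta, a difference of 1.67 (SE 0.33, adjusted p = 0.000685). At lit ZT12 it had 105.5 and 50.5 RPM against 91 and 53.5 RPM, and the species overlapped, but the dark minus lit contrast of 1.61 did not pass (adjusted p = 0.213). Against the other light-dark hours its difference at ZT12 was larger by 1.41 (adjusted p = 0.0283), a call lost on leaving out any of the 4 means (1.19 to 1.63, highest adjusted p = 0.173).

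Of the other clock entries, RVE6 (47.5 and 38 RPM against 19.5 and 23.5 RPM) and RVE8, activators of evening genes, were higher by 0.96 and 0.89. The call of RVE8 was lost without the F. bidentis day 1 mean (0.62, adjusted p = 0.0521). ELF4, of the evening complex, had 7.5 and 8 RPM against 2.5 and 3.5 RPM (1.14, SE 0.21). CCA1, a morning factor near its daily low at this hour, had 2.5 RPM on both days against 5 and 6 RPM (-0.89, SE 0.19, adjusted p = 0.00116). FIO1 differed by -1.40. GI, which peaks near dusk, had 970.5 and 908 RPM in F. bidentis and 805.5 and 1051.5 RPM in F. robusta and did not pass (0.03, SE 0.23). ELF3 (0.42), LUX (0.39), ZTL (-0.41), LHY (0.22), PRR3 (-0.40), CHE (-0.18), LWD1 (0.36) and TIC (-0.10) did not pass either. PRR9 (-0.43), PRR5 (-0.20), FKF1 (-0.27) and LNK1 (-0.14) did not pass and changed sign on leaving out single means. LKP2 (-0.82) and PRMT5 (-0.90) were not called without the F. robusta day 2 mean (-0.59, adjusted p = 0.0849, and -0.62, adjusted p = 0.14), PRMT5 also not without the F. bidentis day 1 mean (-0.59, adjusted p = 0.161). PRR7 (-0.55) and JMJD5 (0.68) lost their calls in 3 of the 4 fits that left out a mean (highest adjusted p = 0.199 and 0.0914).

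Clock outputs leaned to F. bidentis, with 6 of 8 entries higher (median 0.91), and 5 without the F. robusta day 2 mean. CDF3, a repressor of CONSTANS, had 6 RPM on both days against 1 and 1.5 RPM in F. robusta (1.65, SE 0.17, adjusted p = 6.74e-07). RVE1, which links the clock to auxin, had 10 and 7.5 RPM against 2 and 1.5 RPM (1.82, SE 0.24). CDF2 and COL2 differed by 1.01 and 1.21. All 4 were low at this hour, so few reads stand behind them, and the depth of the libraries is unknown here.

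Light signalling had 5 of 23 entries higher and 3 lower, and 5 and 2 without the F. robusta day 2 mean. In the full comparison that is 21.7% higher against a background of 17.7%, and 13% lower against 19.9%. BBX21, a B-box factor that promotes greening and photomorphogenesis in Arabidopsis, had 82.5 and 74 RPM in F. bidentis and 3 and 4.5 RPM in F. robusta (4.08, SE 0.24, adjusted p = 3.18e-10). BBX24, a negative regulator of the same family, had 51.5 and 41 RPM against 13 and 20 RPM (1.45, SE 0.21). PIF7, a growth-promoting factor held back by phytochrome, had 2 and 1.5 RPM against 10 RPM on both days (-2.01, SE 0.26). SPA3, a partner of the COP1 ubiquitin ligase, differed by -0.99.

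Leaf cell regulators also differed. SCR, which specifies endodermis in roots and bundle sheath in leaves, had 85.5 and 77 RPM in F. bidentis and 7 and 8 RPM in F. robusta, a difference of 3.28 (SE 0.22, adjusted p = 2.23e-09). Its partner SHR had 25.5 and 26.5 RPM against 11.5 and 10 RPM (adjusted p = 3.64e-05), and SCL23 differed by 1.23. GLK1, an activator of photosynthesis genes, had 1.5 RPM on both days against 4.5 and 3.5 RPM (-0.99, SE 0.18). GLK2, singled out after its values were seen, differed by -0.42 and lost its call in 3 of the 4 fits that left out a mean (highest adjusted p = 0.341).

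Entries of the flavonoid and photoprotection list were lower in F. bidentis for 6 of 10 (median -1.65). Without the F. robusta day 2 mean the median was -1.23. CHS, chalcone synthase at the entry of the pathway, had 164.5 and 207.5 RPM in F. bidentis and 767 and 1445 RPM in F. robusta (-2.50, SE 0.42, adjusted p = 0.000179). CHI, the next enzyme, had 38 and 44.5 RPM against 119 and 213 RPM (-1.93, SE 0.34). FLS1 and F3primeH, a flavonol synthase and a flavonoid hydroxylase, differed by -2.21 and -2.65. F. robusta day 2 was the higher of its 2 days for all 4. Of 7 nitrogen entries GLN1.2, a cytosolic glutamine synthetase, passed, with 260.5 and 237 RPM against 1303 and 3480.5 RPM (-3.09, SE 0.46, adjusted p = 7.1e-05). HEMB1, an early enzyme of chlorophyll synthesis, had 625 and 561 RPM against 208 and 150 RPM (1.74, SE 0.19). GUN4 (0.49) lost its call without the F. robusta day 2 mean (0.29, adjusted p = 0.23) and without either F. bidentis mean.

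Markers of cell types in the leaf were also compared. In bulk leaves, fewer cells of a type and less RNA per cell cannot be told apart. Of 8 vascular markers 5 were lower in F. bidentis, but 1 without the F. robusta day 2 mean, and the summed level of the 9 in the table was 1106.5 and 1124 RPM in F. bidentis and 1522.5 and 1980 RPM in F. robusta. APL, a phloem factor, had 9 and 10 RPM against 16.5 and 23 RPM (-0.97, SE 0.19). AHA3, CESA8 and ATHB8 differed by -0.83, -0.62 and -0.60 and were not called without that mean (-0.63, -0.41 and -0.59, adjusted p = 0.0849, 0.172 and 0.124). AHA3 also lost its call without the F. bidentis day 2 mean (adjusted p = 0.0559), CESA8 without the F. bidentis day 1 mean (adjusted p = 0.135), and ATHB8 in each of the 4 fits that left out a mean. Guard cell markers had 1 of 8 higher and 2 lower: GORK, a potassium channel, had 16.5 and 14 RPM against 5 and 8 RPM (1.14, SE 0.23), and SLAC1 (-0.55) and ALMT12 (-0.52) lost their calls without the F. robusta day 2 mean (adjusted p = 0.182 and 0.312) and without the F. bidentis day 1 mean (adjusted p = 0.234 and 0.325), and SLAC1 without either other mean. The guard cell shares were 12.5% higher against a background of 17.7%, and 25% lower against 19.9%. The vascular shares were 0% higher and 62.5% lower, against the same background. The vascular median was -0.61, and -0.40 without the F. robusta day 2 mean. The guard cell sums were 288.5 and 284.5 RPM in F. bidentis and 269 and 336.5 RPM in F. robusta. In the epidermis list CER3 and ABCG11 of wax synthesis and export were higher by 1.29 and 0.99, GPAT4 differed by -0.55 and lost its call without either day 2 mean (adjusted p = 0.0733 and 0.0582), and the sums were 674.5 and 671.5 RPM against 560 and 635.5 RPM. Senescence markers summed to 437 and 414.5 RPM against 547.5 and 707.5 RPM, and SAG12 had 34 and 38 RPM against 36.5 and 24 RPM. NYC1, of chlorophyll breakdown, differed by -0.80 and was not called without either day 2 mean (adjusted p = 0.087 and 0.082).

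Of 258 ribosomal protein entries 57 were higher in F. bidentis (22.1% against a background of 17.7%) and 10 were lower (3.88% against 19.9%), with a median of 0.44. With that mean of F. robusta day 2 left out 33 were higher and 4 lower, and the median was 0.46. The higher share was then 12.8%, below the background of 16.7% in that fit, and the lower share 1.55% against 12.3%. Of 31 proteasome entries 0 were higher (0% against 17.7%) and 4 were lower (12.9% against 19.9%). Their median was -0.16, and 0.07 without that mean. Pentatricopeptide repeat entries had 16 of 140 higher (11.4%) and 25 lower (17.9%), and 15 (10.7%) and 13 (9.29%) without that mean. The tRNA synthetases had 6 of 42 higher (14.3%) and 7 lower (16.7%), and 8 (19%) and 3 (7.14%) without that mean.

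Beyond the lists, entries were named by the size of their difference. AT4G17830, annotated as a peptidase of the M20 family, had 162 and 153 RPM in F. bidentis and was listed at 0 in F. robusta on both days, at the other light-dark hours and at lit ZT12, so no fold is given. SPL9 (AT2G42200), a factor of the vegetative phase change, had 87 and 82 RPM against 1 RPM on both days (5.42, SE 0.26, adjusted p = 1.78e-11). AT5G38910, a cupin family entry, had 178.5 and 152.5 RPM against 1 and 1.5 RPM (6.21, SE 0.32). AT1G12090, annotated as extensin-like, had 169.5 and 190 RPM against 2 and 2.5 RPM (5.80). AT4G27450 and AT3G15450, both annotated as aluminium-induced proteins, had 1063.5 and 901 RPM against 40.5 and 34.5 RPM, and 296.5 and 260.5 RPM against 11 and 6 RPM. AT5G52390, a PAR1 protein, had 28.5 and 31 RPM against 0 and 0.5 RPM, and AT1G05160, a cytochrome P450, had 51 and 43 RPM against 1.5 and 1 RPM.

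Among those lower in F. bidentis, AT1G76080, annotated as a chloroplastic drought-induced stress protein, had 10 RPM on both days against 485 and 521.5 RPM in F. robusta (-5.52, SE 0.18, adjusted p = 1.29e-13). AT1G14790, an RNA-dependent RNA polymerase, had 11 and 9.5 RPM against 295.5 and 437 RPM (-5.00). AT5G64410, an oligopeptide transporter, had 4.5 RPM on both days against 130.5 and 259 RPM (-5.07). AT2G36190, a cell wall invertase, had 4.5 and 6.5 RPM against 139 and 265 RPM (-4.91). AT5G35525 of the PLAC8 family had 1 and 1.5 RPM against 84 and 79.5 RPM, AT4G26740, a seed gene, 1 RPM on both days against 81.5 and 46.5 RPM, AT5G61520, a transporter, 1.5 and 4.5 RPM against 113.5 and 106.5 RPM, and AT3G06610 1 RPM on both days against 51 and 55.5 RPM. AT5G19500, a permease, was listed at 0 in F. bidentis against 31.5 and 26.5 RPM. The dehydrin AT4G38410 had 1.5 and 0 RPM against 52 and 55.5 RPM (-5.11, SE 1.25), and was not called without the F. bidentis day 2 mean (-4.45, adjusted p = 0.0542).

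The species difference at ZT12 was then set against the mean difference over the other 5 light-dark hours, which asks how the early dark differs from the rest of the cycle. It differed for 774 entries (5.71%), with 324 shifted toward F. bidentis (2.39%) and 450 toward F. robusta (3.32%). A ratio of at least 2 was reached by 462 of them (3.41%), with 208 up (1.53%) and 254 down (1.87%). When the F. robusta day 2 mean was left out 365 differed (2.69%), with 213 up (1.57%) and 152 down (1.12%). Of the 774, 557 were also called at ZT12 itself and 217 were not. Against ZT16 alone, the next dark hour sampled, 106 entries passed, and against ZT08 alone 354. The C4 list had 1 of 30 entries shifted up (3.33% against a background of 2.39%) and 5 down (16.7% against 3.32%). Besides the kinases these were NADP-ME4, NADP-ME1 and NADP-ME2, whose differences at ZT12 were shifted by -1.03, -1.10 and -1.12 (adjusted p = 0.000906, 0.000494 and 0.000708), and NADP-MDH, shifted by 1.06 (adjusted p = 0.00162). The 5 shifted down belong to the kinase and NADP-malic enzyme families, whose entries may share reads.

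The malic enzyme shift had its larger part in F. robusta. NADP-ME4 in F. robusta had 688 and 716 RPM at ZT12 against 141 to 617.5 RPM at the other hours, and in F. bidentis 7353 and 7220.5 RPM against 5261.5 to 6737.5 RPM. NADP-MDH in F. robusta had 208 and 248 RPM against 249.5 to 831 RPM at the other hours, whereas the F. bidentis values lay inside its range of 4088.5 to 6458 RPM. Against ZT08 alone or ZT16 alone none of these 4 passed, with shifts of -0.46 and -0.05 for NADP-ME4 and 0.43 and 0.65 for NADP-MDH (lowest adjusted p of the 8 comparisons, 0.232).

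The starvation list had 5 of 19 entries shifted toward F. bidentis (26.3% against a background of 2.39%), and 2 without the F. robusta day 2 mean. ASN1 was shifted by 1.37 (adjusted p = 0.0175), ETFQO by 1.15, TPS9 by 1.03, TPS10 by 0.98 (adjusted p = 0.00628) and DIN1 by 1.61. Each lost its call on leaving out at least 1 mean, with highest adjusted p of 0.0939, 0.125, 0.0736, 0.0572 and 0.183. Against ZT16 alone TPS10 (adjusted p = 0.111), ASN1 (0.173), TPS9 (0.137) and DIN1 (0.132) did not pass. In F. bidentis ETFQO was at 75 and 65.5 RPM at ZT12 and at 60 RPM or below at the other hours. TPS10 and ASN1 had F. bidentis values at another hour as high as at ZT12, with 140 RPM and 261 RPM at ZT00 of day 2.

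LOX2 was shifted by 1.88 (adjusted p = 0.000906), and did not pass against ZT08 alone (adjusted p = 0.0613). In F. bidentis LOX2 was also high at ZT04 of day 1, with 826.5 RPM. AOS, HSP17.6II and JAZ1 were shifted by 1.93, 1.71 and 0.99, and all 3 lost their calls on leaving out single means, with highest adjusted p of 0.201, 0.254 and 0.143.

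Outside the lists, AT5G28237, a pyridoxal phosphate enzyme, stood high in F. bidentis at ZT12 and at no other light-dark hour. It had 82.5 and 88.5 RPM there at ZT12, between 1 and 8 RPM at the other light-dark hours, and 3 and 6 RPM at lit ZT12. F. robusta had 2.5 and 3 RPM at ZT12 and at most 2.5 RPM at the other hours. Its shift was 4.16 against the other hours (adjusted p = 1.64e-07) and 3.82 against lit ZT12 (adjusted p = 3.38e-05), and every alternative kept both calls. AT3G11180, a 2-oxoglutarate-dependent oxygenase, had 55 and 48 RPM in F. bidentis at ZT12 and 1.5 and 2 RPM at lit ZT12, with 5 RPM on both dark days in F. robusta. Its contrast with lit ZT12 was 3.92 (adjusted p = 7.56e-05).

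AT4G17370, an oxidoreductase, had 178 and 149 RPM in F. bidentis at ZT12 and at most 30 RPM at the other light-dark hours, with 2.5 and 0 RPM in F. robusta. Its shift was 4.88 (adjusted p = 0.000216). Against lit ZT12 its contrast of 6.97 (adjusted p = 0.0416) lost its call without the F. bidentis day 1 mean (adjusted p = 0.146), the F. bidentis day 2 mean (0.134) or the F. robusta day 2 mean (6.06, adjusted p = 0.158), and lit F. robusta itself differed between days, with 0.5 and 38 RPM. The peroxidase entries AT3G49960, AT4G37520 and AT2G18980 had 20 and 78.5, 18.5 and 58, and 13.5 and 46 RPM in F. bidentis at ZT12, so the days differed widely, and 2 to 7 RPM in F. robusta. Their shifts against the other hours were 4.41, 4.31 and 3.75. AT4G26260, a myo-inositol oxygenase, was shifted by 3.15: it had 96.5 and 136.5 RPM against 4 and 5 RPM at ZT12, although F. bidentis reached 200 RPM at ZT00.

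Nitrate transporter 2.5 (AT1G12940), a high-affinity carrier induced by nitrogen shortage in Arabidopsis, had the largest shift toward F. robusta among the entries named outside the lists. It had 1 and 2 RPM in F. bidentis and 25.5 and 58 RPM in F. robusta at ZT12 (-4.01, SE 0.45, adjusted p = 2.76e-06). In F. robusta it had 12.5 RPM or less at the other light-dark hours. The shift was -4.44 against the other hours (adjusted p = 5.1e-05) and -4.04 against lit ZT12 (adjusted p = 0.007), or -3.63 with the first lit day alone (adjusted p = 0.0967). AT1G76080, described above, was shifted by -3.13 (adjusted p = 3.52e-08): F. bidentis had 10 RPM at ZT12 and 18 to 216 RPM at the other hours. AT3G16150, an Ntn hydrolase, was shifted by -2.89, with 150 and 133 RPM in F. bidentis at ZT12 against 336 to 1158.5 RPM at the other hours. Against ZT08 alone its shift was -2.47 (adjusted p = 0.0663).

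**Figure D5:**
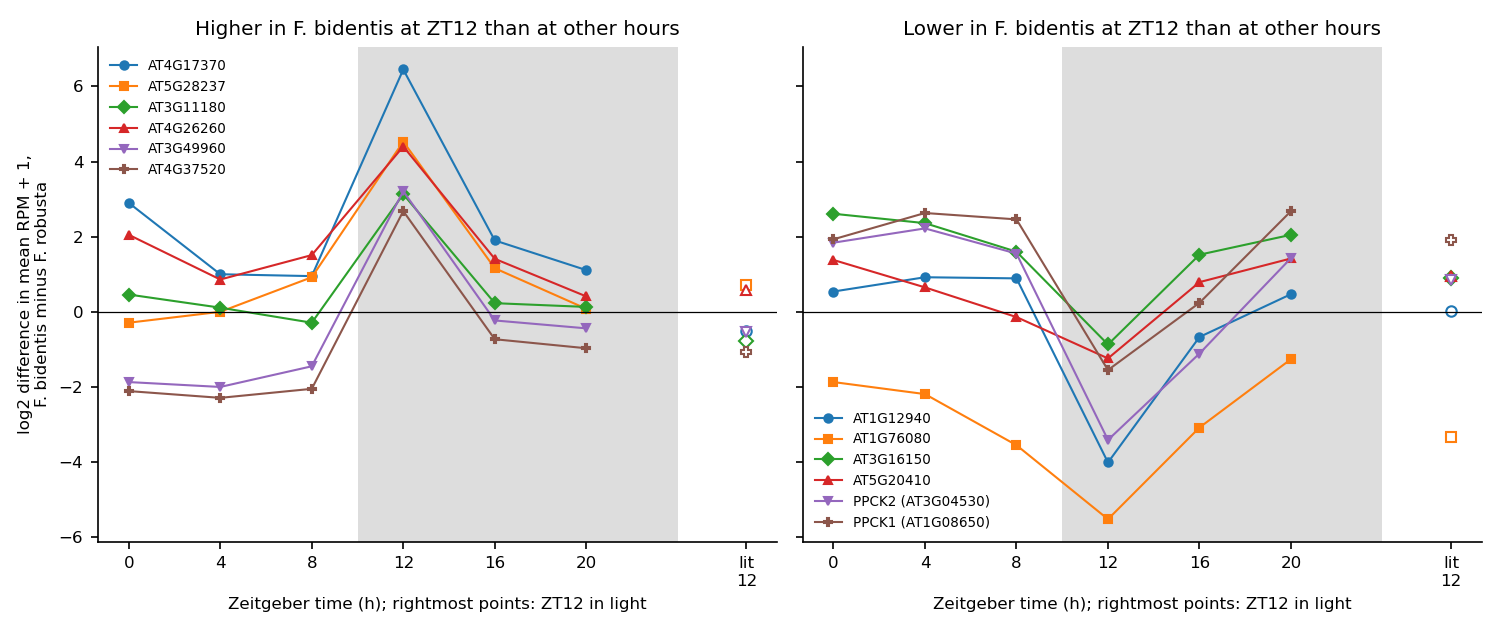
Species difference (log2 of mean RPM + 1, F. bidentis minus F. robusta, mean of both days) by zeitgeber time for 6 entries shifted up at ZT12 (left) and 6 shifted down (right); grey marks the dark, and open symbols at the right give lit ZT12. AT5G28237 stands at 4.53 at ZT12 against 0.71 at lit ZT12, and PPCK2 at -3.41 against 0.84.

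For 281 entries the sign of a called difference at ZT12 was opposite to the mean of the other light-dark hours, 112 of them higher in F. bidentis at ZT12 and 169 lower, and 193 also passed the contrast with the other hours. Among them were 3 entries annotated as NAD(P)-binding Rossmann-fold proteins. AT5G06060 had 86.5 and 95.5 RPM in F. bidentis and 58 and 40 RPM in F. robusta at ZT12 (0.90, SE 0.16), with a mean difference of -1.10 at the other hours. AT2G30670 and AT2G29260 turned from -0.94 to 1.08 and from -0.57 to 1.05. In the other direction, CIPK9 (AT1G01140), a kinase of calcium and potassium signalling, had 45 and 38.5 RPM against 81 and 91.5 RPM (-1.03, SE 0.16), with 0.52 at the other hours. Sulfate transporter 4.1 (AT5G13550), which exports sulfate from the vacuole, had 14.5 and 15 RPM against 35 and 34.5 RPM (-1.18, SE 0.16), with 0.38 at the other hours. Against ZT16 alone the shifts of these 5 entries did not pass, with adjusted p from 0.0661 to 0.714.

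The contrast of dark with lit ZT12 was called for 118 entries (0.87%), with 67 shifted toward F. bidentis in the dark (0.494%) and 51 toward F. robusta (0.376%). A ratio of at least 2 was reached by 116 (0.855%), with 65 (0.479%) and 51. Leaving out the F. robusta day 2 mean gave 47 calls (0.347%), with 32 toward F. bidentis (0.236%) and 15 toward F. robusta (0.111%). With the first lit day alone it was called for 22 and with the second alone for 128. Both galactolipid synthase entries of the type that acts under phosphate shortage in Arabidopsis were among those shifted toward F. robusta. AT5G20410 (monogalactosyldiacylglycerol synthase 2) had 11.5 and 12.5 RPM in dark F. bidentis and 41 and 29 RPM in lit F. bidentis, with 25 and 35 RPM and 17 and 17.5 RPM in F. robusta (-2.20, adjusted p = 0.00205). AT2G11810 (type C) had 32.5 and 28.5 RPM and 93 and 63 RPM in F. bidentis, with 37.5 and 57.5 RPM and 30.5 and 31.5 RPM in F. robusta (-1.87, adjusted p = 0.0112). The call of AT2G11810 was lost without either day 2 mean (-1.78, adjusted p = 0.065, and -1.57, adjusted p = 0.0621). For both, F. bidentis was lower in the dark than in the light and F. robusta was not. GLK2 was shifted by -1.47 (adjusted p = 0.00262), with 3 and 4 RPM in dark and 20 RPM on both days in lit F. bidentis, against 5 RPM on both days and 8 and 10.5 RPM in F. robusta. CP12-3 was shifted by -1.21 (adjusted p = 0.0134): it had 279 and 269 RPM in lit F. bidentis. Its adjusted p was 0.0541 without the F. bidentis day 1 mean (-1.15) and 0.0578 without the F. robusta day 2 mean (-1.11).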

How the data were processed

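Leaf RNA was made into TruSeq libraries and sequenced as 100 bp single-end reads, 12 libraries per lane, per the labels' protocols. The deposited table holds the authors' mean RPM of 2 libraries per species and time point for 21869 Arabidopsis identifiers. CASAVA and TAIR10 are named in the submitters' processing notes; no source used here gives the aligner or how reads of Flaveria were assigned to Arabidopsis genes. The table's 200 columns of single libraries carry numbers that match no sample's labels and were not used, so replicate spread and depth are unknown. The 13563 entries averaging 1 RPM or more over all 50 columns of means entered the tests on log2(mean RPM + 1) with limma 3.58.1 in R 4.3.3 (empirical Bayes with trend and robust options), in 1 fit of 24 light-dark means in 12 groups with 12 residual degrees of freedom; the lit contrast used 28 means. The scripts were tested on simulated data. Members and gene lists were chosen with earlier results of these data known. Any core clock or C4 cycle entry could be named, and of other lists up to 4 with the lowest adjusted p plus up to 2 that opposed the list's majority. Outside the lists up to 10 per direction (6 for the other contrasts) were named by size among described entries called with 1 sign on both days and at least 10 RPM, and up to 6 per direction that turned sign. Others were singled out after their values were seen. Alternatives covered TMM scaling, pseudocount, filters, a day block, left-out means and the hours compared.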

Additional observations from a re-analysis of the deposited data

Results flagged for a closer look

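The species difference at ZT12 differed from that at the other 5 light-dark hours for 774 entries, by a test of the difference itself in limma. Values below are shifts on the log2 scale, positive toward F. bidentis at ZT12. Outside the lists they were 4.88 for AT4G17370, 4.41 for AT3G49960, 4.31 for AT4G37520, 4.16 for AT5G28237, 3.75 for AT2G18980 and 3.15 for AT4G26260. Toward F. robusta they were -4.44 for AT1G12940, -3.13 for AT1G76080, -3.07 for AT1G31260, -2.89 for AT3G16150, -2.58 for AT4G19170 and -2.26 for AT5G45380. Among entries whose sign turned they were 2.00 for AT5G06060, 2.57 for AT1G18900, 2.02 for AT2G30670, 1.63 for AT2G29260, 1.65 for AT3G10300 and 1.43 for AT5G23870. In the other direction they were -1.55 for AT1G01140, -1.56 for AT5G13550, -1.42 for AT1G48260, -2.06 for AT5G20410 and -1.47 for AT1G33990.

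In the C4 cycle the shifts were -4.60 for PPCK2, -3.54 for PPCK1, -1.03 for NADP-ME4, -1.10 for NADP-ME1, -1.12 for NADP-ME2 and 1.06 for NADP-MDH. Clock and output entries had 1.41 for TOC1, -0.85 for LNK1, 0.93 for CDF3 and 1.01 for RVE1. Photosynthesis and sucrose entries had 0.71 for FBA3, -0.90 for PSBX, 1.32 for SPSC and 1.14 for SPSB. Starvation entries had 0.98 for TPS10, 1.37 for ASN1, 1.03 for TPS9, 1.15 for ETFQO and 1.61 for DIN1. Jasmonate and heat entries had 0.99 for JAZ1, 1.88 for LOX2, 1.93 for AOS and 1.71 for HSP17.6II. Regulators and markers had 0.79 for SCL23, -0.90 for GLK2, -0.86 for SLAC1, -0.77 for FAMA, -0.77 for APL, -0.98 for NYC1 and -1.92 for SAG12. Of 52 of the entries called in this contrast and followed through the alternatives, 9 were called under each of them. The others of these lost their call under some alternative.

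The difference between dark and lit ZT12 was called for 118 entries by a test of that difference. Outside the lists the contrasts were 6.97 for AT4G17370, 3.92 for AT3G11180, 3.82 for AT5G28237, 3.81 for AT4G26260, 3.77 for AT4G37520 and 3.76 for AT3G49960. Toward F. robusta they were -4.04 for AT1G12940, -2.48 for AT1G06260, -2.20 for AT5G20410, -2.19 for AT4G24190, -2.12 for AT1G17910 and -1.87 for AT2G11810. In the lists they were -4.25 for PPCK2, -3.46 for PPCK1, -1.21 for CP12-3, 1.12 for BAM4, 1.81 for TPS10, 1.85 for TPS9, 2.22 for ETFQO, 2.48 for LOX2, -1.13 for GLK1, -1.47 for GLK2, 2.95 for DIN1 and 1.48 for TPS11. Of the 24 entries followed, 8 were called under each alternative, and the others lost their call under some alternative.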

How the results depend on the processing

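At ZT12 the count of entries called kept within 1.5 times of 5104 under each alternative (3488 to 4471 on leaving out 1 of the 4 means) except a minimum ratio of 2, which left 2383. Against the other hours, 774 entries became 241 to 887 on leaving out 1 mean, 368 without the F. robusta day 2 means of ZT12 and ZT16, 462 with a minimum ratio of 2, 354 against ZT08 alone and 106 against ZT16 alone. Against lit ZT12, 118 became 32 to 121 on leaving out 1 mean, 43 without the F. robusta day 2 means of ZT12 and ZT16, and 22 with the first lit day alone. Fewer means stand behind each of these settings except the minimum ratio.

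Differences that turned sign were uncalled at ZT12 and ranged, on leaving out 1 mean, from -0.88 to 0.02 for PRR9, -0.29 to 0.02 for LNK1, -0.79 to 0.39 for PRR5, -0.65 to 0.11 for FKF1, -0.16 to 0.22 for GI, -0.03 to 0.16 for PDF2, -0.40 to 1.07 for CA1, -0.14 to 0.21 for ASP2, -0.55 to 0.03 for NRT1.1 and -0.02 to 0.56 for SAG12. Without the F. robusta day 2 means of ZT12 and ZT16 they were 0.39 for PRR5, 0.11 for FKF1, -0.40 for CA1, -0.14 for ASP2, 0.03 for NRT1.1 and -0.02 for SAG12. The shifts of LNK1 and FBA3 turned to 0.29 and -0.24 against ZT16 alone; the cause was not tested. No paired analysis was possible because the numbered libraries of a group are merged in the deposited means, which carry no replicate number. The means can be blocked by day only: a day block gave 5177, 775 and 158 calls, and 4630 at ZT12 with the 4 means fitted alone. The depth behind low entries is unknown.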
